A study of Mus musculus with 4 samples.

Results

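These are the spots of mouse brain sections in which RNA of midbrain dopamine neurons was most concentrated. Spots were chosen by their measured levels of 5 genes. A spot was taken when it held at least 5000 UMIs (unique molecular identifiers, each standing for 1 captured RNA molecule), lay in the top 4% of its library by score, and held at least 1 Slc6a3 UMI. The score was the share of a spot's UMIs that came from Slc6a3, Th, Slc18a2, Ddc and Slc10a4. In all, 444 of 11244 spots were taken: 90 of 2267 in control 1, 102 of 2557 in control 2, 116 of 2952 in knockout 1 and 136 of 3468 in knockout 2. In each knockout 2 spots of the top 4% were left out for want of Slc6a3. The lowest score taken was 12.1, 11.7, 15.4 and 11.9 score-gene UMIs per 10000 in that order of libraries, against 11.9, 11.4, 15.2 and 11.9 in the next spot outside. Because these values chose the spots, levels of the score genes are given as a description, without a test. A Visium spot is a small region that can hold several cells, so these are pieces of tissue with dopamine neurons in them, together with glia, vessels and other neurons.

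The study used 10x Visium on 10 µm fresh-frozen sections to set brains that lack Pdcd10 in their endothelium beside littermate brains, as a model of cerebral cavernous malformations. Knockout mice were Slco1c1-iCreERT2;Pdcd10fl/fl, in which a tamoxifen-inducible Cre driven by the Slco1c1 promoter removes the floxed gene from brain endothelial cells. Controls were Pdcd10fl/fl. Both groups thus carry the floxed alleles, and the labels give 50 µg of 4-hydroxytamoxifen on postnatal day 1, without saying outright that controls received it, and analysis on postnatal day 65. Titles and design text say normoxia for all 4 libraries, a treatment label says normoxia for controls and hypoxia for knockouts, and the treatment protocol of every library gives 12% oxygen for 2 days. If the treatment label holds, oxygen and genotype cannot be told apart. It is not stated that the 2 libraries of each genotype are from different mice, and p-values then speak only of the spread among these sections, which may be technical.

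Dopamine neurons of the substantia nigra and ventral tegmental area make dopamine with tyrosine hydroxylase (Th) and aromatic amino acid decarboxylase (Ddc), load it into vesicles through the transporter encoded by Slc18a2, and take it back up through the one encoded by Slc6a3. The nigral cells are those lost in Parkinson disease, and the ventral midbrain is known for its dense microglia. Loss of Pdcd10 from endothelium gives dilated, leaky vessels, around which glia react.

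Most dopamine-neuron genes outside the score stood far above their level elsewhere in the sections. Levels are given as CPM, the count per 1000000 UMIs of the summed spots, with controls 1 and 2 before "against" and knockouts 1 and 2 after it. Slc6a3 itself stood at 2532 and 1915 against 1198 and 1552 CPM, and at 9.16 to 22.6 CPM in the remaining spots of at least 5000 UMIs, called the rest below. The spots taken held 90.4%, 76.0%, 72.7% and 83.0% of the Slc6a3 UMIs of all such spots in control 1, control 2, knockout 1 and knockout 2. Th reached 1534 and 936 against 836 and 1184 CPM, Ddc 1356 and 1060.0 against 910.2 and 1046 CPM, Slc18a2 963 and 745 against 709 and 697 CPM and Slc10a4 477 and 383 against 256 and 359.8 CPM. Each of the 5 was highest in control 1, and all but Th were lower in both knockouts than in either control. En1, a midbrain transcription factor, stood at 114 and 90.0 against 93.8 and 88.8 CPM and at no more than 2.30 CPM in the rest. Chrna6, a nicotinic receptor subunit, was at 242 and 169.5 against 124 and 143 CPM and at no more than 3.48 CPM in the rest. One exception was Nr4a2, a transcription factor of these neurons, at 99.9 and 95.9 against 87.4 and 114 CPM here and 85.0 and 75.4 against 27.6 and 24.0 CPM in the rest, hardly higher in the controls. The other was Kcnj6, a potassium channel gene of nigral neurons, at 1.26 to 4.55 CPM here and 1.81 to 2.54 CPM in the rest.

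**Figure D1:**
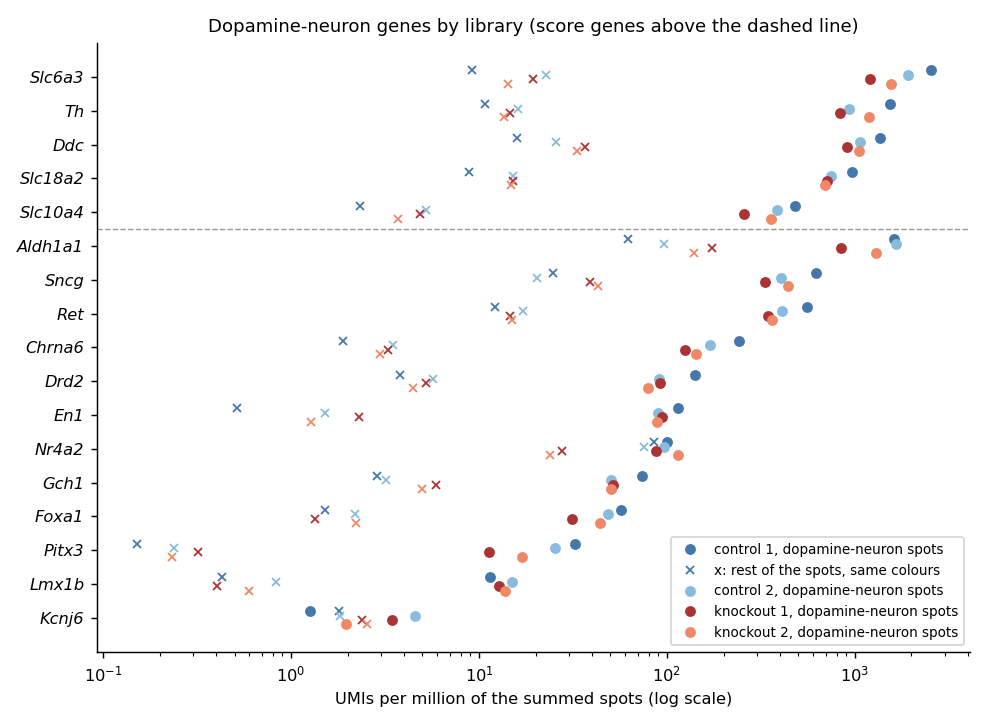
Level in CPM (log scale) of 17 dopamine-neuron genes in the summed dopamine-neuron spots (dots) and in the rest of the spots (crosses), 1 symbol per library, coloured by library. The dots lie far to the right of the crosses for all genes but Kcnj6 and, in the controls, Nr4a2. The knockout levels of Slc6a3, Ddc, Slc18a2, Slc10a4, Aldh1a1, Ret, Chrna6, Foxa1 and Pitx3 lie below both control levels.

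Markers of other cells showed what else the spots held. Tph2, Slc6a4 and Fev of serotonin neurons and Dbh, Slc6a2 and Phox2a of noradrenaline neurons were at 0 to 2.29 CPM in every library. Slc17a7, the vesicular glutamate transporter of cortex, was at 13.9 and 30.9 against 38.5 and 31.3 CPM, and at 645 to 911 CPM in the rest. Gad1 of GABA neurons was at 254 and 254 against 294 and 333 CPM. Ucn and Cartpt, peptides of the Edinger-Westphal nucleus, were uneven: Ucn was at 0 and 0 against 22.2 and 1.63 CPM and Cartpt at 20.9 and 17.7 against 158 and 62.0 CPM. All libraries list the same barcodes, which are positions on the capture area; 47 of them were taken in both knockouts, 4 in both controls, and 0 to 8 in any control and knockout. Median UMIs per spot taken were 16514, 21045, 16422.5 and 20416.5 in control 1, control 2, knockout 1 and knockout 2, against 18648, 22529, 13617 and 16681.5 in the rest. Pdcd10 was at 90.4 and 68.2 against 76.0 and 89.8 CPM (log2 fold change 0.04, SE 0.16, adjusted p = 0.929). Its deletion is meant for endothelium alone, and reads from a gene's end need not cover the part removed, so this level checks no label.

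Within a library the spots were not uniform. When they were split into terciles by score, Aldh1a1, a dehydrogenase of ventral nigral neurons, went from 538 and 676 against 622 and 512 CPM in the low tercile to 2649 and 2689 against 1027 and 2201 CPM in the high one. En1 went from 34.2 and 21.3 against 58.9 and 34.2 CPM to 191 and 165 against 125 and 162 CPM. The high tercile of knockout 1 was the weakest of the 4, with a score of 59.4 per 10000 against 111.7, 86.0 and 86.3 in control 1, control 2 and knockout 2. Gfap, the intermediate filament of astrocytes, was lower in the high tercile, at 16.0 and 31.5 against 186 and 126 CPM, than in the low one, at 89.0 and 154 against 329 and 239 CPM, and in both the knockouts lay above the controls. Cartpt was concentrated in the low tercile of knockout 1, at 415 CPM against 24.9 CPM in its high tercile, and Ucn likewise, at 60.5 against 1.31 CPM. The terciles are cut on the score, so these levels are a description.

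**Figure D2:**
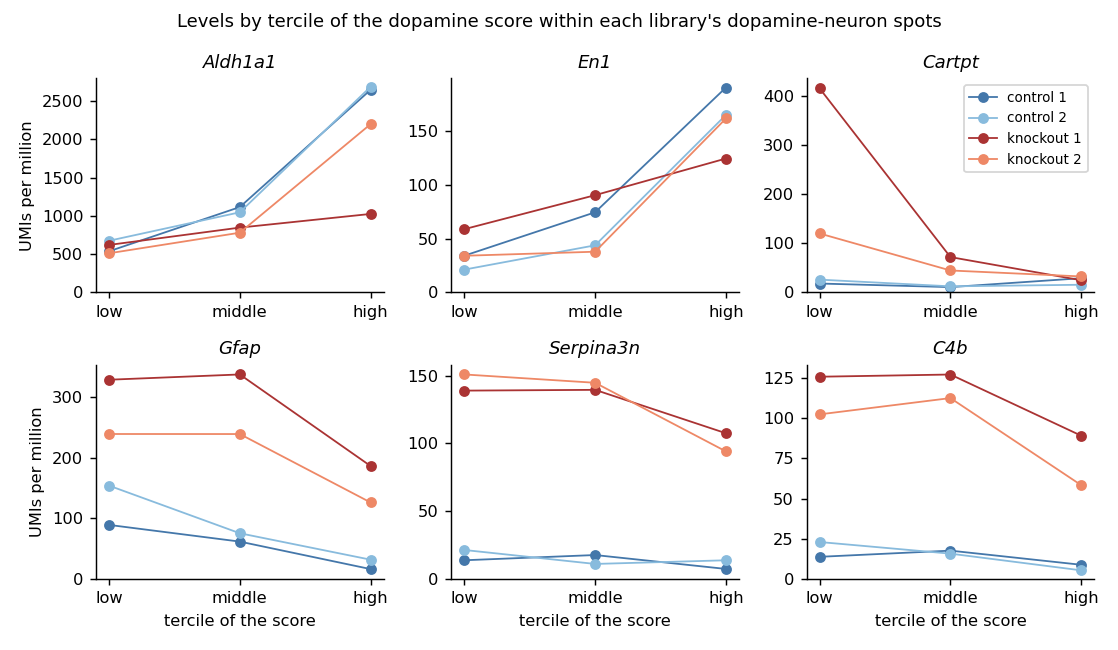
Level in CPM of 6 genes in the low, middle and high tercile of the dopamine score within each library's dopamine-neuron spots, 1 line per library. Aldh1a1 and En1 climb with the score in all 4 libraries, Cartpt peaks in the low tercile of knockout 1, and the knockout lines of Gfap, Serpina3n and C4b lie above the control lines in every tercile.

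To ask how the endothelial knockout changed the dopamine-neuron spots, the sums of each library were compared with edgeR's quasi-likelihood test. The 5 score genes were left out, p-values were adjusted by Benjamini-Hochberg over every gene tested, and an adjusted p under 0.05 counted as a call. Of 11634 genes, 347 (2.98%) rose and 381 (3.27%) fell in the knockouts, 221 and 155 of them by at least 2-fold. Unadjusted p was under 0.05 for 2361 genes, and the median log2 fold change over all genes was 0.01. In the rest, whose sums are far deeper, 3431 of 17377 genes (19.7%) rose and 3106 (17.9%) fell. Counts by gene list below are to be read beside these shares, which differ between the dopamine-neuron spots and the rest. The 2 largest rises by the naming rule were protease inhibitors. A2m, alpha-2-macroglobulin, was at 2.53 and 6.82 against 73.5 and 40.5 CPM (log2 fold change 3.41, SE 0.38, adjusted p = 8.52e-06). Serpina3n, which reactive astrocytes make, was at 12.0 and 15.0 against 127 and 125 CPM (log2 fold change 3.15, SE 0.19, adjusted p = 1.14e-08), with both knockouts at nearly 1 level. Ccn2, a matrix-bound growth factor, rose by 2.97 on the log2 scale, complement C4b by 2.88, the cell cycle inhibitor Cdkn1a by 2.77 and the peptidoglycan recognition protein Pglyrp1 by 2.59. The remaining 6 of the 12 largest rises were Ctla2a (2.73), Sgk3 (2.51), Cartpt (2.44), Phyhd1 (2.36), Sult1a1 (2.31) and the endothelial receptor Adgrl4 (2.25).

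The largest falls were those of Pth2 and Ttr, and next came oligodendrocyte genes. Pth2, a neuropeptide made in the subparafascicular area beside the midbrain, had 104 and 140 against 1 and 6 UMIs. The ratio of its levels was 46.9, with a 95% exact Poisson interval of 22.4 to 118 that covers counting error only. Ttr, the transthyretin of choroid plexus, had 38 and 133 UMIs against 1 and 4, and it was at 105 and 38.5 against 0.49 and 0.584 CPM in the rest. In spots rich in Slc17a6, described below, Ttr was at 425 and 263 against 0 and 0 CPM. Of the other choroid plexus and ependymal markers, Foxj1 was at 5.69 and 13.6 against 3.95 and 3.59 CPM in the dopamine-neuron spots. Kl was at 2.53 and 2.73 against 0.494 and 2.61 CPM there, with overlapping groups. The part of choroid plexus RNA in the Ttr fall was not tested. Opalin, a membrane protein of myelinating oligodendrocytes, was at 180.2 and 185 against 13.8 and 25.5 CPM (log2 fold change -3.20, SE 0.20, adjusted p = 1.14e-08). Pllp, plasmolipin, was at 204 and 230.0 against 36.5 and 46.4 CPM (log2 fold change -2.42, SE 0.16, adjusted p = 2.85e-08). Ugt8a, which makes myelin galactolipids, fell by 2.30 on the log2 scale, Enpp6 of young oligodendrocytes by 2.49 and Gamt of creatine synthesis by 2.44. The other large falls were Pdlim2 (-2.49), Map6d1 (-2.28), Hsd11b1 (-2.13) and the microglial receptor P2ry12 (-2.21).

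Of the genes listed for dopamine neurons, those that passed were lower. Of the genes of dopamine synthesis and breakdown 0 of 11 rose and 2 fell. Of the transcription factors 0 of 13 rose and 1 fell, of receptors, channels and survival factors 0 of 19 rose and 3 fell, and of other markers 0 of 22 rose and 1 fell. At an unadjusted p under 0.05, 0, 1, 1 and 1 genes of these lists were higher and 2, 4, 8 and 3 lower, and with DESeq2 0 rose and 2 fell, both of the first list. Over all genes 2.98% rose and 3.27% fell. List medians lay between -0.35 and 0.11. Qdpr, which regenerates the biopterin cofactor of tyrosine hydroxylase, was at 517 and 644 against 247 and 244 CPM (log2 fold change -1.29, SE 0.15, adjusted p = 1.49e-05). Its log2 fold change in the rest was -1.24, and the difference between both changes was -0.04 (SE 0.12, adjusted p = 0.964). Other genes of the pathway did not pass, with 0.11 for Spr, -0.17 for Pts, -0.19 for Pcbd1 and -0.30 for Gch1 of cofactor supply, and 0.18 for Maoa and 0.11 for Maob of dopamine breakdown (adjusted p 0.375 to 0.894). Nr4a2, which these neurons need for their identity, was at 99.9 and 95.9 against 87.4 and 114 CPM, with overlapping groups (log2 fold change 0.00, SE 0.15, adjusted p = 0.992). En1 (-0.20), Foxa2 (0.00), Lmx1b (-0.06) and Sox6 (-0.46) also missed the limit.

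The other markers that fell were mostly genes by which dopamine neurons are recognised. Pitx3, a homeobox factor of these cells, was at 32.2 and 25.5 against 11.4 and 17.0 CPM (log2 fold change -1.01, SE 0.25, adjusted p = 0.0186). Aldh1a1 was at 1623 and 1654 against 847 and 1297 CPM (log2 fold change -0.66, SE 0.18, adjusted p = 0.0341), with knockout 1 well below the other 3 libraries. Chrna6 had the levels given above (log2 fold change -0.65, SE 0.16, adjusted p = 0.0188). Ntsr1, the neurotensin receptor, was at 82.2 and 64.1 against 42.5 and 43.7 CPM (log2 fold change -0.79, SE 0.17, adjusted p = 0.00655), and Aldh1a7 fell by 1.19 on the log2 scale. The median score of the spots was 44.8 and 29.8 per 10000 in control 1 and 2 against 32.3 and 26.5 in knockout 1 and 2, so this median overlapped between the groups. In the summed spots, which the tests used, the score genes Slc6a3, Ddc, Slc18a2 and Slc10a4 were lower in both knockouts than in either control. The groups thus differed in the genes that chose the spots. In an alternative added after seeing the data, 52 spots per library were drawn to the same spread of scores, and the summed spots then scored 46.0, 44.7, 43.5 and 43.4 per 10000. There the 5 genes missed the limit: Pitx3 (-0.47, adjusted p = 0.569), Aldh1a1 (-0.23, adjusted p = 0.488), Chrna6 (-0.42, adjusted p = 0.142), Ntsr1 (-0.37, adjusted p = 0.417) and Aldh1a7 (-1.0, adjusted p = 0.157), with fewer UMIs behind each. The calls for Pitx3 (adjusted p = 0.0551 without control 1 and 0.094 without knockout 1), Aldh1a1 (adjusted p = 0.538 without knockout 1), Chrna6 (adjusted p = 0.155 without control 1 and 0.158 without knockout 1) and Aldh1a7 (adjusted p = 0.0534 without knockout 1) were lost with 1 library left out, and over all alternatives their adjusted p ranged from 1.15e-07 to 0.569. The adjusted p of Ntsr1 ran from 1.89e-04 to 0.417 over its alternatives. In a sum over spots, fewer dopamine neurons per spot and less of an RNA per neuron cannot be told apart.

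Of the 7 genes of these 4 lists that fell, Kcnip3 and Qdpr also fell in the score-matched spots. Qdpr fell in the rest as well, as given above. Kcnip3, a calcium sensor that binds potassium channels, was at 55.6 and 59.5 against 34.1 and 30.0 CPM (log2 fold change -0.91, SE 0.17, adjusted p = 0.00305), and had -1.03, adjusted p = 0.00664 after matching. In the rest it was at 72.2 and 69.0 against 80.6 and 79.2 CPM (log2 fold change 0.11, SE 0.07, adjusted p = 0.235). Kcnip3 was thus no higher in the dopamine-neuron spots than in the rest, in controls or knockouts. The change in the dopamine-neuron spots differed from that in the rest by the test of the difference itself, the interaction of genotype with spot class (interaction -1.02, SE 0.17, adjusted p = 1.39e-06), and did so in all 16 alternatives. The Kcnip3 fall itself was not called in the top 2% of spots (-0.72, adjusted p = 0.0946) or with DESeq2 (-0.90, adjusted p = 0.0624), and its adjusted p ran from 1.28e-04 to 0.0946 over its alternatives.

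Markers of the 2 main dopamine nuclei had list medians of opposite sign, and that difference was not tested. Of the ventral-tier nigral genes 0 of 11 rose and 2 fell, Aldh1a1 and the choline transporter Slc44a1 (log2 fold change -0.61, SE 0.15, adjusted p = 0.0173), with a median of -0.23. Anxa1, a marker of a nigral subtype, was at 30.4 and 35.9 against 28.6 and 46.7 CPM and Ndnf at 127 and 61.8 against 82.4 and 134 CPM, and both overlapped between the groups. Of the ventral tegmental genes 3 of 14 rose and 2 fell, with a median of 0.47. Calb1, the calbindin of tegmental and dorsal nigral neurons, was at 89.8 and 98.2 against 126 and 161 CPM (log2 fold change 0.56, SE 0.15, adjusted p = 0.0327), and had 0.66, adjusted p = 0.0269 in the score-matched spots. Cartpt, whose level in knockout 1 was far the highest in the low tercile, missed the limit in the top 2% of spots (1.01, adjusted p = 0.0732; 1.64e-29 to 0.0732 over its alternatives). Lpl, a lipase that phagocytes make too, stood at 3.16 and 2.27 against 14.3 and 7.51 CPM on 5 UMIs in each control (log2 fold change 1.91, SE 0.50, adjusted p = 0.0274). Marcks (-0.50) and Efnb3 (-0.67) fell, while Otx2 (1.06), Slc17a6 (0.45) and Cck (-0.18) did not pass. The calls for Slc44a1 (adjusted p = 0.109 without control 2, 0.0559 without knockout 1 and 0.15 without knockout 2), Calb1 (adjusted p = 0.0665 without control 1 and 0.344 without knockout 2), Lpl (adjusted p = 0.126 without control 2 and 0.292 without knockout 1), Marcks (adjusted p = 0.135 without control 2, 0.236 without knockout 1 and 0.21 without knockout 2) and Efnb3 (adjusted p = 0.105 without knockout 2) were lost with 1 library left out, and over all alternatives their adjusted p ranged from 5.06e-04 to 0.344.

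Of genes linked to Parkinson disease 1 of 21 rose and 0 fell, with a median of -0.17. That is near the shares over all genes, of which 2.98% rose and 3.27% fell. The one that rose was Gpnmb, a glycoprotein of phagocytes, with 0 and 2 against 12 and 16 UMIs, a ratio of 10.4 (95% exact Poisson interval 2.62 to 90.1). The call for Gpnmb (adjusted p = 0.142 without control 1 and 0.0994 without knockout 1) was lost with 1 library left out, and over all alternatives its adjusted p ranged from 8.40e-04 to 0.24. Lrrk2, Park7, Pink1 and Vps35 had adjusted p of 0.391 to 0.959.

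Genes of neuronal function changed in small numbers, beside 2.98% higher and 3.27% lower over all genes. Of 17 calcium and pacemaking genes 2 rose, Scn1a and Calb1, and 1 fell, the pacemaker channel gene Hcn2. Hcn2, which oligodendrocytes carry too, was at 227 and 238 against 118 and 112 CPM (log2 fold change -1.07, SE 0.14, adjusted p = 5.66e-05), and fell in the rest by 0.83 on the log2 scale. Of 19 synaptic genes 1 rose and 0 fell. Of 21 nuclear genes of oxidative phosphorylation 0 rose and 4 fell, Ndufa1, Uqcrb, Cycs and Ndufb7, by 0.51 to 0.54 on the log2 scale, and 0 passed without control 1, without knockout 1 or without knockout 2. Of the 13 transcripts of the mitochondrial genome 0 passed with edgeR or DESeq2, and 0 were higher and 0 lower at an unadjusted p under 0.05, at a list median of 0.12. The call for Scn1a (adjusted p = 0.188 without knockout 1) was lost with 1 library left out, and over all alternatives its adjusted p ranged from 2.26e-05 to 0.188.

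Of 22 heat shock and endoplasmic reticulum stress genes 1 rose and 7 fell, beside 2.98% higher and 3.27% lower over all genes. Cryab, a small chaperone that oligodendrocytes make in quantity, was at 463 and 512 against 168 and 138 CPM (log2 fold change -1.73, SE 0.15, adjusted p = 6.24e-07). Hsph1, Creld2, Hspa1a, Hspe1, Hspa1b and Ddit3 fell by 0.56 to 1.60 on the log2 scale. Hspb1, another small chaperone, rose and stood at 16.4 and 13.6 against 37.0 and 50.6 CPM. The list also fell elsewhere: in the rest 16 of 23 fell and 2 rose, with a median of -0.39 against -0.45 here. In spots rich in Slc17a6, described below, 7 of 22 fell and 1 rose. The interaction of genotype with spot class, against the rest, was lower for 2 of 23 and higher for 0. In the dopamine-neuron spots the list held 4 falls without knockout 1 and 4 without knockout 2. The calls for Hsph1 (adjusted p = 0.0606 without knockout 1), Hspa1a (adjusted p = 0.0794 without control 2), Hspe1 (adjusted p = 0.0787 without control 1, 0.201 without knockout 1 and 0.12 without knockout 2), Hspa1b (adjusted p = 0.0656 without control 1, 0.0741 without control 2 and 0.217 without knockout 2) and Ddit3 (adjusted p = 0.195 without control 1, 0.174 without knockout 1 and 0.139 without knockout 2) were lost with 1 library left out, and over all alternatives their adjusted p ranged from 1.37e-04 to 0.515.

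Immediate early genes, which neuronal activity switches on, fell in the rest and mostly did not pass here. In the rest 17 of 18 fell and 1 rose, with a median of -1.71. In the dopamine-neuron spots 2 of 13 fell, Egr1 (-1.58) and Arc (-1.63), and 1 rose, Dusp1, with a median of -0.34. Over all genes 17.9% fell in the rest, whose sums are far deeper, and 3.27% in the dopamine-neuron spots. Control levels were already low here: Fos was at 15.2 and 25.9 against 12.3 and 16.0 CPM, and at 124 and 101 against 22.6 and 22.1 CPM in the rest. The interaction passed for Fos (1.78, SE 0.25, adjusted p = 1.12e-09), for Nr4a1 (1.81, SE 0.29, adjusted p = 2.07e-07) and for Nr4a2 (1.72, SE 0.14, adjusted p = 1.24e-31). Over the list it was higher for 9 of 18 genes and lower for 1. Dusp1, a phosphatase of the early response that glucocorticoids also raise, was at 17.7 and 26.4 against 40.5 and 63.3 CPM (log2 fold change 1.18, SE 0.23, adjusted p = 0.0041) and had -0.49 in the rest (interaction 1.66, SE 0.19, adjusted p = 3.04e-15). With each spot thinned to 5000 UMIs the interactions of Fos (1.16, adjusted p = 0.527) and Nr4a1 (1.03, adjusted p = 0.633) no longer passed, whereas those of Nr4a2 and Dusp1 held in all 16 alternatives. Over the alternatives the interaction's adjusted p ran from 9.60e-13 to 0.527 for Fos and from 1.55e-07 to 0.633 for Nr4a1. The calls for Arc (adjusted p = 0.0682 without control 1 and 0.138 without knockout 2) and Dusp1 (adjusted p = 0.0552 without knockout 2) were lost with 1 library left out, and over all alternatives their adjusted p ranged from 1.11e-06 to 0.203.

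Reactive astrocyte genes rose in the dopamine-neuron spots, part of them by less than in the rest. Of 18 tested genes of the reactive astrocyte list 11 rose and 0 fell, with a median log2 fold change of 1.47. In the rest 32 of 34 rose and 1 fell, with a median of 2.06, and the interaction was lower for 4 of 34 and higher for 0. Gfap was at 49.3 and 78.2 against 278 and 192 CPM (log2 fold change 1.80, SE 0.21, adjusted p = 1.25e-05). Vim, a filament gene of reactive and immature astrocytes, was at 29.1 and 29.1 against 75.5 and 70.2 CPM (log2 fold change 1.27, SE 0.17, adjusted p = 9.97e-05), and at 36.0 and 40.8 against 478 and 484 CPM in the rest. The difference between the changes was -2.29 (SE 0.20) on the log2 scale for Vim (adjusted p = 3.28e-28), and it held in all 16 alternatives. Serpina3n reached 397 and 417 CPM in the knockouts' rest, with a difference of -1.37 (SE 0.24, adjusted p = 4.29e-06) that was lost without control 2 (-1.32, adjusted p = 0.0717, with 1.08e-07 to 0.176 over the alternatives). Stat3, a transcription factor of the reaction, had 0.36 (adjusted p = 0.33) here and 1.16 in the rest (interaction -0.80, SE 0.18, adjusted p = 0.00125), a difference lost without control 2 (-0.49, adjusted p = 0.645) and without knockout 2 (-0.65, adjusted p = 0.117, with 7.73e-05 to 0.731 over the alternatives). That of Gfap (-0.47, SE 0.14, adjusted p = 0.0393) held in 5 of 16 alternatives and was lost without control 1, control 2 or knockout 2 (adjusted p = 0.069, 0.919 and 0.353, with 2.98e-08 to 0.919 over the alternatives). Lcn2, an iron-binding lipocalin, had 1 and 1 against 18 and 46 UMIs.

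Single spots showed the same order. Thinned to 5000 UMIs, a dopamine-neuron spot held a median of 1 and 1.5 UMIs of the reactive astrocyte list against 4 and 4, with highest values of 5, 8, 18 and 14. A spot of the rest held medians of 1 and 2 against 11 and 10. Of 16 general astrocyte genes 2 rose and 1 fell, with a median of 0.27. Gjb6, an astrocyte connexin, was at 72.7 and 103 against 297 and 219 CPM (log2 fold change 1.49, SE 0.18, adjusted p = 2.92e-05), and Glul, glutamine synthetase, at 614 and 918 against 1451 and 1235 CPM (log2 fold change 0.76, SE 0.18, adjusted p = 0.016). Ntsr2 fell (-0.61), and Aqp4, the water channel of astrocyte endfeet, did not pass (-0.40, adjusted p = 0.203). The calls for Glul (adjusted p = 0.181 without knockout 1) and Ntsr2 (adjusted p = 0.0982 without control 2, 0.0669 without knockout 1 and 0.206 without knockout 2) were lost with 1 library left out, and over all alternatives their adjusted p ranged from 6.08e-07 to 0.351.

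Genes of resting microglia fell in the dopamine-neuron spots. Of 13 homeostatic microglia genes 8 fell and 1 rose, Sparc, which astrocytes and vessels also make, and the median was -0.97. P2ry12, a purinergic receptor, was at 46.2 and 59.5 against 9.38 and 13.7 CPM (log2 fold change -2.21, SE 0.23, adjusted p = 4.57e-06). Gpr34, a lipid receptor, was at 19.6 and 21.8 against 2.96 and 2.61 CPM (log2 fold change -2.94, SE 0.36, adjusted p = 3.05e-05), and Olfml3 at 34.1 and 41.4 against 6.91 and 11.1 CPM (log2 fold change -2.07, SE 0.25, adjusted p = 3.11e-05). Fcrls, an Fc receptor-like gene of mouse microglia, had 42 and 33 against 3 and 4 UMIs, a ratio of 14.4 (95% exact Poisson interval 6.66 to 37.1). In the rest Fcrls was at 18.4 and 21.9 against 11.5 and 13.5 CPM, a smaller fall (interaction -3.16, SE 0.46, adjusted p = 3.80e-09); thinned to 5000 UMIs per spot, that difference missed the limit (-2.96, adjusted p = 0.0698, with 2.19e-10 to 0.0698 over the alternatives). In none of these 4 genes did the groups overlap. Cx3cr1 (-1.07), Selplg (-1.12) and Tmem119 (-0.97) fell as well. In the top 2% of spots Cx3cr1 (-0.72, adjusted p = 0.383) and Selplg (-0.78, adjusted p = 0.286) were not called. Nor were they with DESeq2 (adjusted p = 0.191 and 0.0795), nor Cx3cr1 after thinning (-1.40, adjusted p = 0.11). In the rest 9 of 15 homeostatic genes fell and 3 rose, and the interaction was lower for 6 of 15 and higher for 0. The calls for Tmem119 (adjusted p = 0.216 without control 2 and 0.115 without knockout 2) and Sparc (adjusted p = 0.115 without knockout 1) were lost with 1 library left out, and over all alternatives their adjusted p ranged from 1.78e-08 to 0.357.

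Genes of activated phagocytes rose widely in the rest, and fewer of them passed here. Of 24 in the dopamine-neuron spots 5 rose, Lyz2, B2m, Capg, Gpnmb and Lpl, and 2 fell, Tyrobp and Aif1, with a median of 0.03. In the rest 23 of 30 rose and 0 fell, with a median of 0.83, and the interaction was lower for 11 of 30 and higher for 1. Over all genes 2.98% rose and 3.27% fell here, against 19.7% and 17.9% in the rest, whose sums are far deeper. Tyrobp, the signalling adaptor of microglial receptors, was at 62.0 and 63.6 against 31.6 and 32.3 CPM in the dopamine-neuron spots (log2 fold change -1.02, SE 0.17, adjusted p = 7.14e-04) and at 33.4 and 36.1 against 62.4 and 60.8 CPM in the rest (log2 fold change 0.75, SE 0.08, adjusted p = 4.17e-04), so it went opposite ways. Its interaction (-1.77, SE 0.18, adjusted p = 1.35e-20) passed in all 16 alternatives. Its fall was not called after thinning (-0.70, adjusted p = 0.197) or in the score-matched spots (-0.62, adjusted p = 0.117), with an adjusted p of 5.77e-06 to 0.197 over the alternatives. Spp1, osteopontin, was at 42.4 and 73.6 against 104 and 74.8 CPM (log2 fold change 0.52, SE 0.22, adjusted p = 0.173) and at 21.5 and 19.3 against 173 and 197 CPM in the rest. Ctss, a cathepsin, was at 83.5 and 104 against 96.3 and 90.1 CPM (log2 fold change -0.07, SE 0.15, adjusted p = 0.862) and at 54.3 and 69.2 against 129 and 136 CPM in the rest. The count of rises was 2 without knockout 1 and 3 without knockout 2. The calls for B2m (adjusted p = 0.0699 without knockout 1 and 0.0558 without knockout 2), Capg (adjusted p = 0.0993 without control 2 and 0.105 without knockout 2), Gpnmb (adjusted p = 0.142 without control 1 and 0.0994 without knockout 1) and Lpl (adjusted p = 0.126 without control 2 and 0.292 without knockout 1) were lost with 1 library left out, and over all alternatives their adjusted p ranged from 4.55e-06 to 0.292.

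The 3 genes of C1q, the recognition protein that starts the classical complement pathway and that microglia make, did not pass in the dopamine-neuron spots and rose in the rest (adjusted p = 1.29e-04 for C1qa, 2.70e-05 for C1qb and 1.17e-04 for C1qc). They were singled out after their values were seen. They are neighbours on mouse chromosome 4 (GRCm38.p6, RefSeq): C1qb at chr4:136880126-136886200, C1qc at chr4:136889801-136892936 and C1qa at chr4:136895916-136898844. C1qa was at 77.8 and 85.9 against 94.8 and 80.0 CPM in the dopamine-neuron spots (log2 fold change 0.03, SE 0.16, adjusted p = 0.936) and at 49.8 and 58.4 against 137 and 134 CPM in the rest. C1qb was at 91.1 and 85.0 against 86.9 and 91.7 CPM (log2 fold change -0.02, SE 0.15, adjusted p = 0.958) and at 60.8 and 60.9 against 148 and 158 CPM in the rest. C1qc was at 68.3 and 76.4 against 74.0 and 69.9 CPM (log2 fold change -0.07, SE 0.16, adjusted p = 0.876) and at 47.6 and 55.6 against 135 and 129.7 CPM in the rest. For all 3 genes the dopamine-neuron spots lay above the rest in both controls and below it in both knockouts. The interactions were -1.22 (SE 0.14) for C1qa, -1.28 (SE 0.14) for C1qb and -1.34 (SE 0.15) for C1qc, with adjusted p of 2.83e-14, 2.06e-16 and 5.08e-16. Each passed in all 16 alternatives, with log2 values from -1.75 to -1.10. Complement C4b was at 12.6 and 13.2 against 113 and 86.8 CPM in the dopamine-neuron spots and at 11.7 and 13.7 against 105 and 109.8 CPM in the rest (interaction -0.12, SE 0.24, adjusted p = 0.926). Of 11 complement genes 3 rose and 0 fell: C4b, and Cd59a (0.95) and Serping1 (1.38), which restrain complement. In the rest 15 of 21 rose. The call for Serping1 (adjusted p = 0.0522 without control 1 and 0.233 without knockout 2) was lost with 1 library left out, and over all alternatives its adjusted p ranged from 0.00127 to 0.286.

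**Figure D3:**
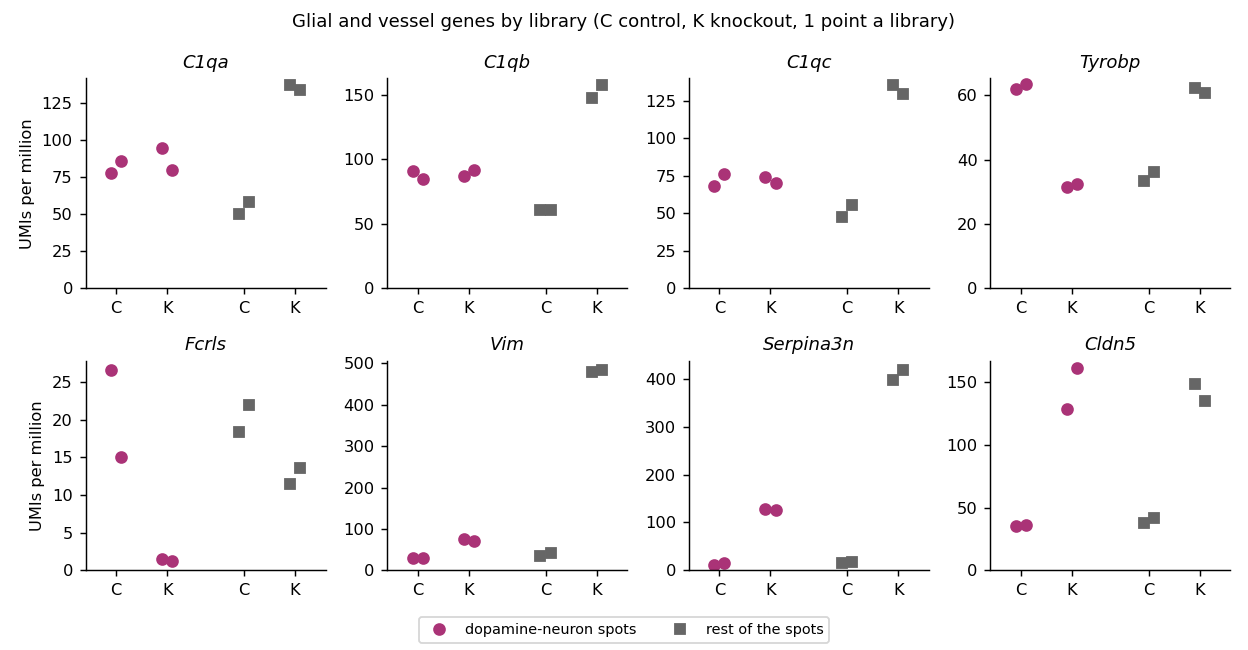
Level in CPM of 8 genes in each control (C) and knockout (K) library, in the dopamine-neuron spots (circles) and in the rest of the spots (squares), with axes from 0. C1qa, C1qb and C1qc lie at similar levels in all 4 libraries in the dopamine-neuron spots and rise in the rest, Tyrobp goes opposite ways, Fcrls falls further in the dopamine-neuron spots, Vim and Serpina3n reach lower levels there than in the rest, and Cldn5 rises in both.

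Part of the antigen presentation and interferon genes rose. Of 12 antigen presentation genes 7 rose and 0 fell, with a median of 1.31. Among them were the class I genes H2-D1, at 39.8 and 38.6 against 126 and 138 CPM (log2 fold change 1.70, SE 0.16, adjusted p = 1.13e-06), and H2-K1 (1.29), and their light chain B2m (0.63). Cd74, the class II invariant chain, had 6 and 3 against 29 and 54 UMIs. It rose further than in the rest (interaction 2.15, SE 0.49, adjusted p = 9.52e-04), a difference lost without control 2 (1.78, adjusted p = 0.1, with 3.33e-05 to 0.671 over the alternatives). Of 21 interferon response genes 5 rose and 0 fell, with a median of 0.58, and in the rest 32 of 34 rose, with a median of 1.52. Ifit1 had 2 and 2 against 16 and 26 UMIs. The interferon count was 1 without control 2, 2 without knockout 1, 3 without knockout 2 and 0 with DESeq2; the antigen presentation count was 4 without knockout 2. The calls for B2m (adjusted p = 0.0699 without knockout 1 and 0.0558 without knockout 2) and Ifit1 (adjusted p = 0.0601 without control 2) were lost with 1 library left out, and over all alternatives their adjusted p ranged from 1.57e-04 to 0.125.

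Vessel genes rose in the dopamine-neuron spots. Of 13 pan-endothelial genes 7 rose and 0 fell, with a median of 0.85, and the edgeR interaction with spot class passed for 0 of 14, or for 0 at an unadjusted p under 0.05. Cldn5, the tight junction protein of brain endothelium, was at 35.4 and 36.4 against 128 and 161 CPM (log2 fold change 1.97, SE 0.17, adjusted p = 4.84e-07), and at 38.0 and 41.5 against 148 and 135 CPM in the rest. Flt1, a receptor for vascular endothelial growth factor, was at 25.9 and 24.1 against 44.9 and 51.6 CPM (log2 fold change 0.91, SE 0.19, adjusted p = 0.00541), and Pecam1 rose too (1.13). Of 18 genes known from cavernous malformation endothelium 11 rose and 1 fell, Adamts4, with a median of 1.23. Klf2, a transcription factor known to rise when Pdcd10 is lost, was at 14.5 and 16.4 against 43.4 and 55.8 CPM (log2 fold change 1.64, SE 0.22, adjusted p = 7.67e-05), and Klf4, its partner in this, at 8.85 and 4.09 against 17.3 and 19.9 CPM (log2 fold change 1.56, SE 0.34, adjusted p = 0.00891). Thbd, thrombomodulin, rose by 1.64 on the log2 scale, Vwf by 1.38, Nos3 by 1.62, Adamts1 by 1.71 and the surface protein Ly6a by 1.69. In the top 2% of spots Flt1, Vwf, Nos3 and Adamts1 were not called (adjusted p = 0.309, 0.47, 0.137 and 0.121). Flt1, Thbd, Vwf and Nos3 were not called in the score-matched spots or with DESeq2 (adjusted p 0.0583 to 0.175). Klf2 rose further here than in the rest (interaction 0.87, SE 0.23, adjusted p = 0.00706), a difference lost without control 1 (0.72, adjusted p = 0.302), without control 2 (1.07, adjusted p = 0.0534) and without knockout 2 (0.69, adjusted p = 0.232, with 8.19e-04 to 0.747 over the alternatives). The calls for Pecam1 (adjusted p = 0.0582 without control 1 and 0.0977 without knockout 2), Adamts4 (adjusted p = 0.418 without control 2, 0.0595 without knockout 1 and 0.0798 without knockout 2) and Klf4 (adjusted p = 0.109 without control 2) were lost with 1 library left out, and over all alternatives their adjusted p ranged from 8.81e-05 to 0.543.

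Blood-brain barrier genes split, with 8 of 16 higher and 3 lower. Slc2a1, the glucose transporter, was at 144 and 122 against 310.5 and 371 CPM (log2 fold change 1.32, SE 0.15, adjusted p = 1.08e-05). Slco1c1, a thyroid hormone transporter whose promoter drives the Cre, was at 22.8 and 28.2 against 84.4 and 97.6 CPM (log2 fold change 1.77, SE 0.18, adjusted p = 3.29e-06), and the lipid transporter Mfsd2a at 37.9 and 50.5 against 103 and 104 CPM (log2 fold change 1.16, SE 0.17, adjusted p = 1.99e-04). By the genotypes given, only the knockouts carried this Cre. For Slco1c1 the transgene and the loss of Pdcd10 therefore cannot be told apart. Itm2a, a membrane protein of brain endothelium, was at 103 and 91.4 against 40.5 and 39.5 CPM (log2 fold change -1.33, SE 0.16, adjusted p = 2.56e-05), and the transporters Slc22a8 (-2.05) and Slc38a5 (-2.02) fell too. Of 13 mural cell genes 0 passed with edgeR or DESeq2, and 4 were higher and 0 lower at an unadjusted p under 0.05, at a median of 0.35. The basement membrane collagen Col4a2 (1.44) and fibronectin, Fn1 (1.68), rose. With any 1 library left out, 5 to 6 pan-endothelial, 9 to 12 malformation and 7 barrier genes rose; with DESeq2 they numbered 3, 4 and 4, and in the score-matched spots 3, 5 and 6. The calls for Slc22a8 (adjusted p = 0.129 without control 2) and Slc38a5 (adjusted p = 0.182 without control 1, 0.0978 without control 2 and 0.355 without knockout 2) were lost with 1 library left out, and over all alternatives their adjusted p ranged from 2.31e-05 to 0.355.

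Because the labels differ on oxygen, hypoxia genes were counted as well. Of 18 in the dopamine-neuron spots 3 rose and 1 fell, with a median of 0.11, and in the rest 11 of 20 rose and 1 fell. Over all genes 2.98% rose and 3.27% fell here, against 19.7% and 17.9% in the rest. The hypoxia genes that rose here were Slc2a1, Ddit4, at 53.7 and 59.5 against 87.9 and 88.1 CPM, and Adm, adrenomedullin, with 3 and 2 against 23 and 45 UMIs. Slc2a1 was also counted among the barrier genes above. Ndrg1 fell (-0.59). The calls for Ddit4 (adjusted p = 0.108 without control 1, 0.126 without knockout 1 and 0.0999 without knockout 2) and Ndrg1 (adjusted p = 0.0938 without control 2, 0.187 without knockout 1 and 0.0542 without knockout 2) were lost with 1 library left out, and over all alternatives their adjusted p ranged from 0.00136 to 0.304.

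Myelin genes fell here and in the rest. Of 18 tested 13 fell and 1 rose, Anln (0.80), with a median of -1.33; in the rest 15 of 18 fell and 1 rose, with a median of -1.16. Mog, a glycoprotein on the outer surface of myelin, was at 393 and 419.5 against 98.2 and 121 CPM (log2 fold change -1.93, SE 0.15, adjusted p = 1.08e-07). Mbp, myelin basic protein, was at 7926 and 12312 against 7307 and 5234 CPM and missed the limit (log2 fold change -0.74, SE 0.23, adjusted p = 0.071). Trf, the transferrin that oligodendrocytes make, was at 742 and 924 against 315 and 269.7 CPM and fell further than in the rest (interaction -0.59, SE 0.11, adjusted p = 3.13e-05). So did Klk6, a protease of mature oligodendrocytes, with -1.76 here and -0.13 in the rest (interaction -1.63, SE 0.28, adjusted p = 1.39e-06), a difference lost without knockout 2 (-1.05, adjusted p = 0.0704, with 2.26e-08 to 0.0975 over the alternatives). Of 10 genes of reacting oligodendrocytes 7 rose and 2 fell, Klk6 and Il33 (-1.38). Sgk1, a glucocorticoid-induced kinase, was at 163 and 217 against 456 and 479 CPM (log2 fold change 1.24, SE 0.15, adjusted p = 3.45e-05). Its relative Sgk3 was at 10.1 and 9.09 against 57.3 and 55.5 CPM and rose further than in the rest (interaction 1.24, SE 0.27, adjusted p = 4.18e-04), a difference lost without control 2 (1.23, adjusted p = 0.05, with 5.80e-05 to 0.115 over the alternatives). The call for Anln (adjusted p = 0.104 without knockout 1) was lost with 1 library left out, and over all alternatives its adjusted p ranged from 5.23e-04 to 0.104.

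Markers of blood and of neighbouring regions were read beside these changes. Of 4 erythrocyte genes 3 fell; Hbb-bs, a haemoglobin gene, was at 680.4 and 317 against 169 and 249 CPM, with control 1 far above the other 3 libraries. Of 10 midbrain GABA neuron genes 0 passed with edgeR or DESeq2, and 3 were higher and 1 lower at an unadjusted p under 0.05. Of 9 striatal genes 3 rose, Penk, at 25.9 and 32.7 against 63.7 and 96.6 CPM (log2 fold change 1.40, SE 0.21, adjusted p = 2.34e-04), Tac1 (0.75) and Ppp1r1b (1.09), which neurons of the midbrain express as well. Of 10 thalamic genes 1 fell, Prkcd (log2 fold change -1.26, SE 0.26, adjusted p = 0.00576). Calca, a peptide of cranial motor neurons, was at 3.79 and 9.09 against 18.3 and 33.3 CPM (log2 fold change 1.91, SE 0.36, adjusted p = 0.00264). The part of unequal section planes in these differences was not tested. The calls for Hba-a1 (adjusted p = 0.264 without control 1 and 0.0999 without knockout 1) and Ppp1r1b (adjusted p = 0.19 without knockout 1) were lost with 1 library left out, and over all alternatives their adjusted p ranged from 5.14e-12 to 0.716.

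**Figure D4:**
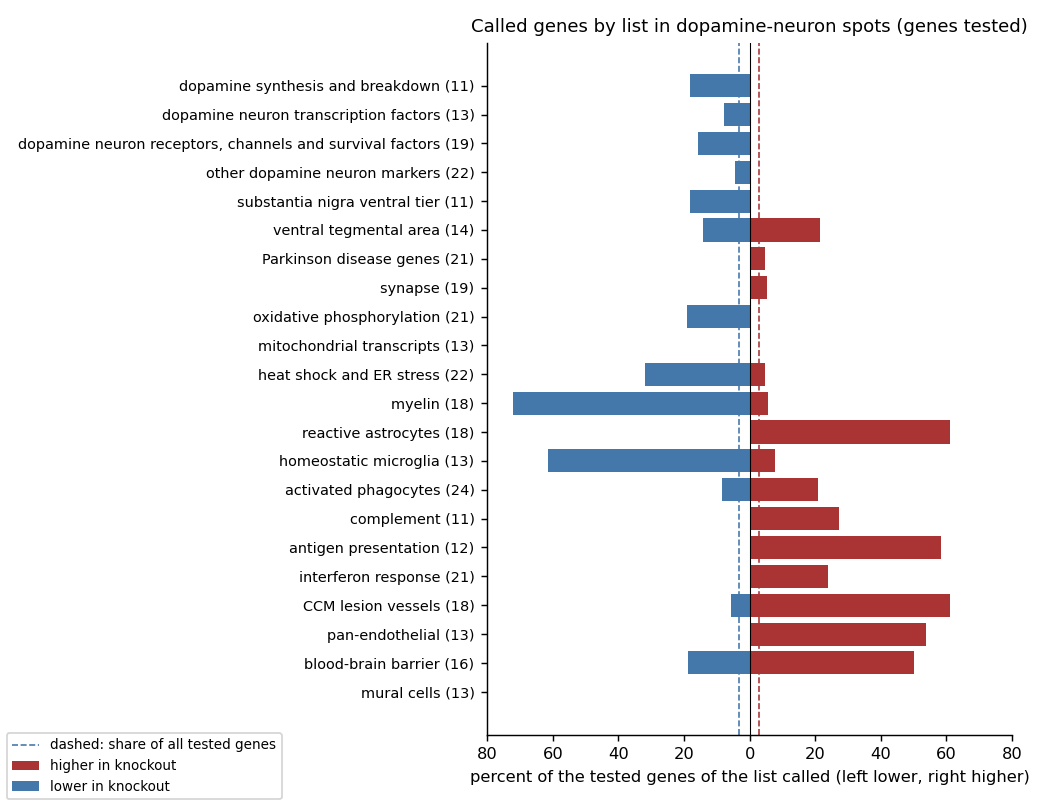
Percent of the tested genes of 22 lists that rose (right) or fell (left) in the dopamine-neuron spots of knockouts; the number tested stands after each name, and the dashed lines give the shares over all genes, 2.98% higher and 3.27% lower. Myelin and homeostatic microglia lists lean lower, reactive astrocyte, antigen presentation and vessel lists lean higher, and the called genes of the 4 dopamine-neuron lists are all lower.

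Over all genes, the knockout change differed between the dopamine-neuron spots and the rest upward for 246 of 16900 genes (1.46%) and downward for 252 (1.49%), in an edgeR model with the library as a block. Without control 1 these counts were 91 and 109, and without control 2 they were 121 and 111. The most positive interactions among genes of at least 20 CPM were those of C1ql2, Ccn2, Nr4a1, Fos, Hopx and Nr4a2, and the most negative those of Spp1, Vim, S100a6, Igfbp2, Tyrobp and Arpc1b. S100a6, a calcium-binding protein of reactive astrocytes, was at 44.9 and 59.5 against 101 and 78.7 CPM here and at 48.3 and 52.1 against 419 and 394 CPM in the rest. Igfbp2, an insulin-like growth factor binding protein, was at 26.6 and 29.5 against 34.6 and 22.2 CPM here and at 45.4 and 43.8 against 204 and 184 CPM in the rest. Ccn2 ran the other way, at 5.06 and 4.55 against 34.6 and 42.4 CPM here and 31.5 and 25.9 against 56.9 and 59.5 CPM in the rest. The rest spans many regions, and a hypothalamic marker differed in it: Agrp was at 16.8 and 18.4 against 0.49 and 0.511 CPM. The part of unequal regions in these interactions was not tested.

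**Figure D5:**
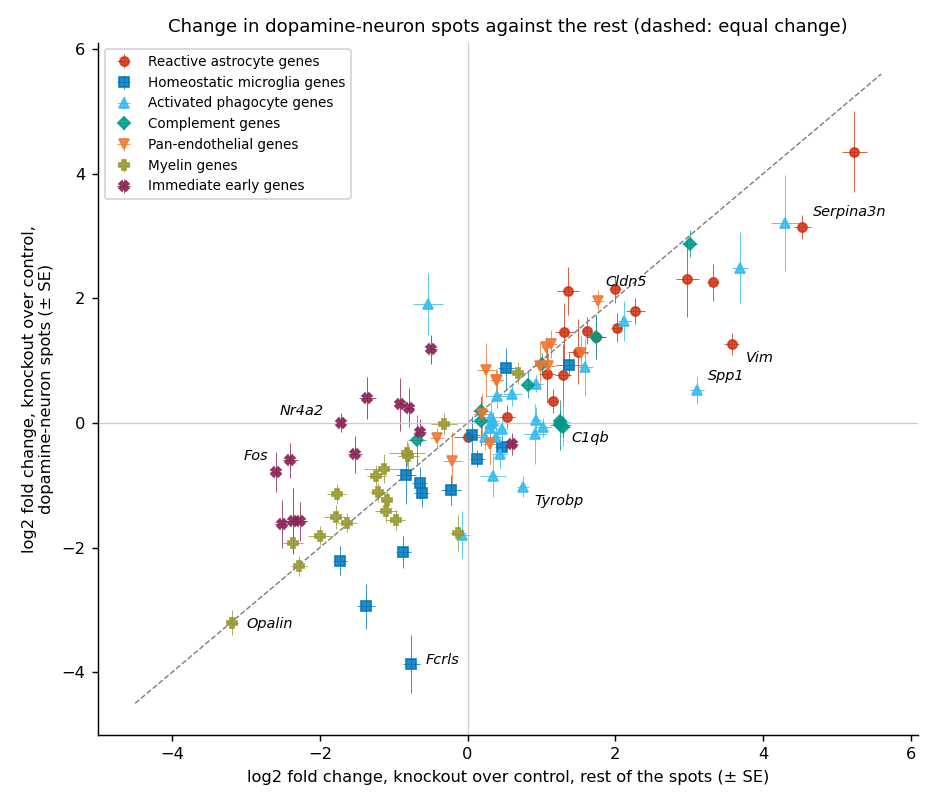
Log2 fold change, knockout over control, of the genes of 7 lists in the rest of the spots (x axis) and in the dopamine-neuron spots (y axis), with standard errors; the dashed line marks equal change. Myelin and pan-endothelial genes lie near the line, most immediate early genes above it, and C1qb, Vim, Spp1, Serpina3n, Tyrobp and Fcrls below it.

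A second comparison set was closer in kind: spots of subcortical glutamate neurons, the top 4% of each library by share of Slc17a6 UMIs that were not dopamine-neuron spots, 440 in all. Against them the change differed upward for 145 of 12153 genes (1.19%) and downward for 90 (0.741%). Without control 1 these counts were 76 and 24, without control 2 they were 84 and 23, and the downward count was 45 without knockout 1 and 157 without knockout 2. C1q did not differ past the limit: the interaction was -0.22 (SE 0.20) for C1qa, -0.51 (SE 0.19) for C1qb and -0.48 (SE 0.21) for C1qc, with adjusted p of 0.752, 0.209 and 0.304. Nor did Vim (-0.18, SE 0.23, adjusted p = 0.84), Serpina3n (-0.57, SE 0.29, adjusted p = 0.427) or Fcrls (-0.91, SE 0.91, adjusted p = 0.783). By list, the interaction passed for 0 of 19 reactive astrocyte genes, with 2 higher and 1 lower at an unadjusted p under 0.05. For homeostatic microglia it passed for 0 of 14, with 1 higher and 3 lower at that limit. Of 25 activated phagocyte genes it was lower for 2 and higher for 0. In the Slc17a6 spots themselves 5 of 22 phagocyte genes rose and 0 fell. The C1q, Vim, reactive astrocyte and homeostatic microglia patterns were therefore not shown to be particular to dopamine-neuron spots.

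Other genes did separate the dopamine-neuron spots from the Slc17a6 spots. Tyrobp was at 36.0 and 24.3 against 34.7 and 26.9 CPM in the Slc17a6 spots (interaction -1.09, SE 0.26, adjusted p = 0.0128); the difference was lost without control 2 (-0.78, adjusted p = 0.344) and without knockout 1 (-0.91, adjusted p = 0.106, with 0.00173 to 0.344 over the alternatives). Spp1 differed too (interaction -1.21, SE 0.25, adjusted p = 0.00443), but not without control 2 (-0.27, adjusted p = 0.839, with 1.92e-09 to 0.839 over the alternatives). Nr4a2 (interaction 1.63, SE 0.25, adjusted p = 3.40e-05) and Dusp1 (interaction 1.46, SE 0.24, adjusted p = 1.71e-04) had the more positive change in the dopamine-neuron spots in all 7 alternatives. Fos did so as well (interaction 1.29, SE 0.32, adjusted p = 0.0204), but not without control 1 (0.92, adjusted p = 0.281) or knockout 2 (0.98, adjusted p = 0.258, with 0.00215 to 0.291 over the alternatives). Sncg, gamma-synuclein, was at 623 and 405 against 333 and 443 CPM in the dopamine-neuron spots and at 72.7 and 44.7 against 131 and 131 CPM in the Slc17a6 spots (interaction -1.64, SE 0.15, adjusted p = 1.99e-09). Of 13 thalamic genes 10 had the more positive change in the dopamine-neuron spots. Their summed level in the Slc17a6 spots was 2212 and 2346 against 767 and 1203 CPM, so that comparison set held less thalamic RNA in the knockouts. It also held more dopamine-neuron RNA there, with Slc6a3 at 18.0 and 19.4 against 54.4 and 29.7 CPM, Ddc at 40.5 and 37.7 against 72.3 and 57.9 CPM and Th at 18.0 and 23.3 against 31.4 and 39.4 CPM. The Sncg levels of the groups overlapped in the dopamine-neuron spots and did not in the Slc17a6 spots, and the part of these shifts in the Sncg difference was not tested.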

How the data were processed

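The deposited count matrices hold UMIs per gene and barcode, made by the authors with Space Ranger against mm10, per the submitters' processing notes; the file headers name Cell Ranger 4, and the Space Ranger version is not given in the sources used here. Each of the 4 libraries lists 4992 barcodes and 32285 genes, with totals of 50148764 and 64317838 UMIs for the controls against 53514669 and 74467027 for the knockouts. The dopamine-neuron spots of a library held 1581453 to 3063143 UMIs, and their sums are the replicates, 2 per group. Sums were normalised by TMM and filtered with filterByExpr in edgeR 4.0.16 (R 4.3.3), and tested by glmQLFit and glmQLFTest, with DESeq2 1.42.0 as an alternative; the interaction fits had the library as a block. Spots were read with Python 3.11.15; the UMI minimum stood in for a tissue mask. SE is the fold change over the root of the F statistic. The scripts were tested on simulated data.

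The spots, gene lists and tests were chosen with earlier results of these data known. A gene could be named where it was, among called genes of at least 20 CPM whose groups did not overlap and leaving out predicted symbols, one of 12 by size of rise, 12 by size of fall or 6 by p. So could genes of the dopamine, nigral, tegmental and Parkinson lists, up to 4 called genes of each other list (the 2 highest where fewer than 2 were called), the 6 most positive and 6 most negative interactions of at least 20 CPM, the score genes and Pdcd10. Other genes were named after their values were seen. Some genes that the rule takes are not reported here. Counts in the 2 libraries of a group differed by more than sampling noise (chi-square per degree of freedom 3.93 in the controls and 3.39 in the knockouts). Alternatives changed the UMI minimum, the share of spots, the score, depth, filter, normalisation and libraries used.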

Additional observations from a re-analysis of the deposited data

Results flagged for a closer look

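The change between control and knockout differed between the dopamine-neuron spots and the rest, by the interaction of genotype with spot class, for 246 genes upward and 252 downward. On the log2 scale the most positive differences were those of C1ql2 (2.27), Ccn2 (2.01), Nr4a1 (1.81), Fos (1.78), Hopx (1.74) and Nr4a2 (1.72). The most negative were those of Spp1 (-2.61), Vim (-2.29), S100a6 (-2.24), Igfbp2 (-2.13), Tyrobp (-1.77) and Arpc1b (-1.61). Against the Slc17a6 spots it differed for 145 genes upward and 90 downward. The most positive differences there were those of Stum (2.79), Synpo2 (2.73), Tnnt1 (2.68), Plekhg1 (2.51), Ramp3 (2.45) and Ptpn3 (2.44), and the most negative those of Gch1 (-2.04), Cadps2 (-1.68), Sncg (-1.64), Tpbg (-1.56), Ubash3b (-1.23) and Spp1 (-1.21). Such a difference can come from a change in either set. Of the thalamic genes 12 of 13 fell in the Slc17a6 spots, against 1 of 10 in the dopamine-neuron spots. The part of that shift in these differences was not tested. C1ql2, a synaptic organiser of hippocampal mossy fibres, was at 6.32 and 10.9 against 50.3 and 18.6 CPM in the dopamine-neuron spots, with knockout 1 highest. Gch1, which starts the synthesis of the biopterin cofactor, was at 73.4 and 50.5 against 51.8 and 50.3 CPM in the dopamine-neuron spots and at 2.25 and 1.98 against 9.62 and 5.32 CPM in the Slc17a6 spots. The latter levels rest on 3 and 4 against 23 and 17 UMIs, and its change in the dopamine-neuron spots did not pass. The Slc17a6 spots also held more dopamine-neuron RNA in the knockouts, whose part in the Gch1 difference was not tested.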

How the results depend on the processing

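Calls in the dopamine-neuron spots numbered 347 higher and 381 lower, against 154 and 148 in the top 2% of spots, 112 and 160 with spots thinned to 5000 UMIs, and 117 and 162 with DESeq2. The score-matched spots, added after seeing the data, gave 199 higher, 173 of them among the 347. With 1 library left out there were 237 to 352 higher and 260 to 488 lower. The difference from the rest (246 and 252) gave 136 and 100 in the top 2%, 62 and 78 after thinning, 136 and 135 in the score-matched spots, and 91 to 206 and 109 to 193 with 1 library left out. The difference from Slc17a6 spots (145 and 90) gave 76 to 185 and 23 to 157 with 1 library left out, and 23 and 43 lower with the top 2% and top 8% of Slc17a6 spots. Adcyap1 (0.48, adjusted p = 0.524) gave -1.05 without knockout 2 and 1.10 without knockout 1. The cause of these changes was not tested; the top 2%, thinned, score-matched and left-out-library fits used fewer UMIs or libraries. Every other alternative of these 3 comparisons gave counts within 1.5 times of those above. Depth limits genes with few UMIs per library.

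The deviations of same-numbered libraries from their group means correlated at -0.089. With 2 libraries per group, both replicate numbers give the same value by construction. It therefore cannot decide whether the replicate numbers of the titles pair the libraries. With the replicate block, 369 genes rose and 365 fell.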
